A study of Mus musculus with 24 samples.

Results

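The mouse proteasome genes of the heart were followed after a stroke of the brain. The set holds every gene of the deposited table whose symbol begins with Psma, Psmb, Psmc, Psmd, Psme or Psmf and then a digit, which gave 44 of 24011 named genes. Membership was set by spelling alone and by no measured value, but the family itself was chosen with earlier results of these data known. The animals were C57BL/6J mice 8 weeks old, whose hearts were taken after a sham operation or after MCAO, the blocking of the middle cerebral artery that starves part of the brain of blood. The 4 groups, of 6 Affymetrix arrays each, were sham at 24 h, MCAO at 24 h, sham at 72 h and MCAO at 72 h. All mice were wild type, and the labels name no transgene or drug in any group. The arrays read whole heart tissue, so fewer cells of a type and less RNA per cell cannot be told apart. No label states that every array stands for its own animal. The p-values therefore reflect only how far these arrays differ, which may be technical.

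The proteasome is the barrel-shaped protease that degrades proteins marked with ubiquitin. Its 20S core is a stack of alpha and beta rings, and the beta subunits carry the cutting sites. The 19S cap binds ubiquitin chains, unfolds the substrate with a ring of ATPases and removes ubiquitin at its lid, while other activators (Psme genes) open the core without ubiquitin. In cells exposed to interferon, Psmb8, Psmb9 and Psmb10 replace the standard catalytic beta subunits to form the immunoproteasome, which is abundant in leukocytes and shapes peptides for MHC class I. Heart muscle relies on the proteasome to renew its contractile proteins.

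By role, the genes comprised 8 alpha subunits of the core, 5 constitutive beta subunits, 3 immunoproteasome subunits and the thymus-specific beta subunit Psmb11. The 19S cap contributed 6 ATPases of the base, 3 other base subunits, 8 lid subunits and 3 assembly chaperones that help build the base and then leave. There were also 5 activators or inhibitors of the core. The remaining 2 genes, Psmc3ip and Psme3ip1, match the spelling but encode binding partners and not subunits. Psmb3 and Psmb5 were not analysed here.

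Values are the deposited log2 values, on which a difference of 1 is a doubling, and a change is the MCAO mean minus the sham mean of the same time. No detection limit came with them, so 1370 olfactory and vomeronasal receptor genes, which are expected to be silent in the heart, served as a yardstick. Of the proteasome genes, 41 had a mean above 3.956, the level that 95% of those receptor genes stayed under. The other 3 were Psmb11, the testis-specific alpha subunit Psma8, and Psma5, a subunit of every core. Psma5 had group means of 3.42 to 3.64 on the log2 scale, so its values could not be told apart from those of silent genes, and they say nothing about a change of Psma5. Levels of different genes are read by different probes and are not compared with each other.

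Arrays of the MCAO 24 h group varied most. Each array's correlation across genes with the rest of its group was 0.971 to 0.991 there and 0.985 to 0.997 in the other groups. The median SD of the proteasome genes was 0.262 in MCAO 24 h, against 0.182 in sham 24 h, 0.147 in sham 72 h and 0.121 in MCAO 72 h. Heart muscle markers (Myh6, Actc1, Tnnt2, Tnni3, Ryr2, Mb) were all above the receptor level, and 2 of these 6 were called lower at 24 h. Their array means at 24 h were 12.80 to 12.88 in sham and 12.50 to 12.80 in MCAO, with every MCAO array below every sham array. At 72 h none of the 6 was called, with array means of 12.79 to 12.91 in sham and 12.62 to 12.80 in MCAO. Of 5 smooth muscle and pericyte markers, 2 were called lower at 24 h and none at 72 h. Of 5 endothelial markers, 2 were called higher and 1 lower at 24 h, at a median change of 0.03. At 72 h, 1 endothelial marker was called higher and 1 lower, at a median change of 0.09. Of 5 fibroblast markers (Col1a1, Col3a1, Pdgfra, Dcn, Lum), 3 were called lower at 24 h, at a median change of -0.83, and 1 at 72 h, at a median change of -0.64. The fibroblast array means at 24 h were 8.28 to 8.82 in sham and 7.16 to 8.21 in MCAO. The part of these cell types in the changes of the proteasome genes was not tested. A gene was called changed when its adjusted p (limma over all 24011 genes, Benjamini-Hochberg) was under 0.05. The standard error (SE) of each gene is pooled over all 4 groups. Where a gene varied most in MCAO 24 h, pooling can make its 24 h p-value too small.

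At 24 h after MCAO, 8 of the 44 proteasome genes rose and 2 fell, which is 22.7% called, while 21.8% of all genes tested were called in the same comparison (11.1% higher and 10.8% lower). The share of proteasome genes called was therefore close to that of all genes. The 8 that rose were Psmc1, Psmd1, Psmd3, Psmd7, Psmd8, Psma4, Psma6 and Psme4, and the 2 that fell were Psmd9 and Psme1. All 10 changes lay between 1.19-fold and 1.46-fold. The median log2 change over the proteasome genes was 0.05, against 0.01 over all genes tested. By role, 6 of the 20 genes of the 19S cap and its chaperones were called, and 2 of the 17 core genes. Those 17 include all 3 genes at or under the receptor level (Psma5, Psma8 and Psmb11), which lowers the share of the core. At 72 h, 1 of the 44 rose and 1 fell, or 4.55% called, with 2.35% of all genes called (1.17% higher and 1.19% lower). When only genes above the median level were fitted, 8 of 41 proteasome genes rose and 2 fell at 24 h. In that fit 28.6% of the genes kept were called. At 72 h it gave 1 higher and 1 lower of 41, where 5.87% of the genes kept were called. Both main counts depended on the fit. With array weights, 4 genes were called at 24 h (Psmc1, Psmd9, Psme1 and Psme4), where 13.6% of all genes were. The calls of Psma4, Psma6, Psmd1, Psmd3, Psmd7 and Psmd8 were thereby lost. With the 24 h arrays fitted alone, Psmc1 and Psmd9 were the 2 genes called, where 9.14% of all genes were. When the leading principal component of those receptor genes entered the fit as a covariate, 1 gene was called, Psmd4, where 1.33% of all genes were. That component ran from -3.01 to -0.155 in MCAO 24 h and from 0.274 to 1.28 in sham 24 h, so it and the operation could hardly be told apart. The 72 h count was 7 with array weights (Psma2, Psma3, Psmb10, Psmd1, Psmd4, Psmd7 and Psme1), where 7.93% of all genes were called. It was 6 with the 72 h arrays fitted alone, the same genes without Psma2, where 5.87% of all genes were called. It was 0 without any one of MCAO 72 h replicates 2, 5 and 6 and sham 72 h replicates 2 and 3. In those fits 1.64% to 1.91% of all genes were called.

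**Figure D1:**
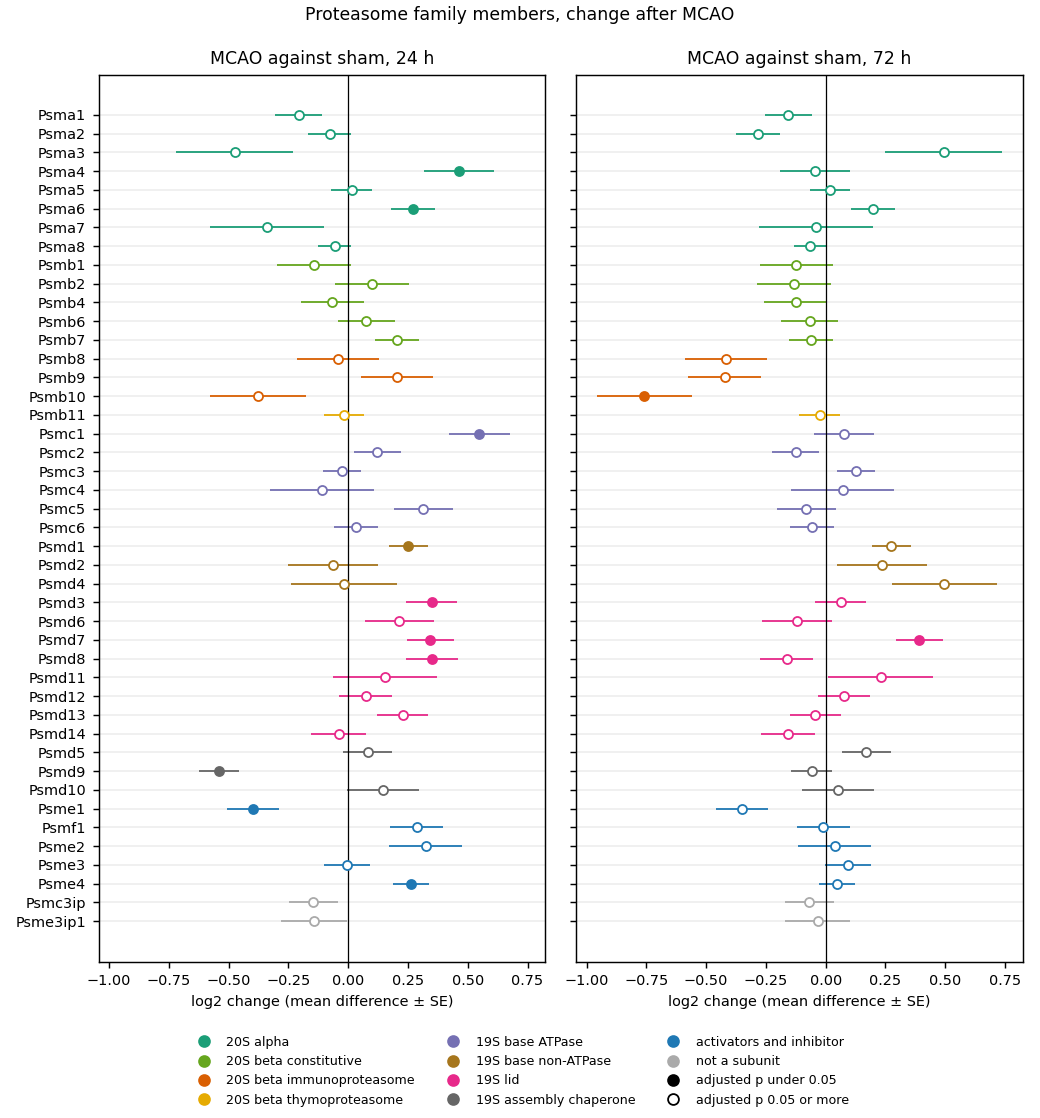
Log2 change of each proteasome gene (MCAO mean minus sham mean, points, with the standard error as bars, n = 6 arrays a group) at 24 h and at 72 h, coloured by role. Filled points passed an adjusted p of 0.05 in limma: 10 genes at 24 h, and Psmd7 and Psmb10 at 72 h. All 3 immunoproteasome subunits lie below 0 at 72 h.

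Promoter sequences are shown for 4 genes. Psmd9, Psmd4 and Psmb8 are the family members whose window held an interferon-type motif, and Psmb10, the immunoproteasome subunit called at 72 h, held none. Psmd4 and Psmb8 were not called at either time. Each is the 250 bases before the RefSeq start of the gene in build GRCm38.p6, read 5′ to 3′ on the gene's strand. The Psmd9 window is chr5:123227940-123228189 on the plus strand, the Psmd4 window chr3:95042615-95042864 on the minus strand the Psmb8 window chr17:34197945-34198194 on the plus strand and the Psmb10 window chr8:105938393-105938642 on the minus strand. Capitals mark matches to 3 motifs searched on both strands: the core of the antioxidant response element (TGACNNNGC), which NRF1 and NRF2 bind at proteasome genes, the core of the interferon-stimulated response element (GAAA, any 2 bases, then GAAA), and the interferon-gamma activated site (TTCNNNGAA), which STAT factors bind.
Psmd9: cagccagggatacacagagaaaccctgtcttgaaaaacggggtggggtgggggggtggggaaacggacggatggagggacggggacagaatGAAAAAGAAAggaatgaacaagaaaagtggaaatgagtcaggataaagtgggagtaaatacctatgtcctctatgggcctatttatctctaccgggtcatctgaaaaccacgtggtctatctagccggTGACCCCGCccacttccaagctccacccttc
Psmd4: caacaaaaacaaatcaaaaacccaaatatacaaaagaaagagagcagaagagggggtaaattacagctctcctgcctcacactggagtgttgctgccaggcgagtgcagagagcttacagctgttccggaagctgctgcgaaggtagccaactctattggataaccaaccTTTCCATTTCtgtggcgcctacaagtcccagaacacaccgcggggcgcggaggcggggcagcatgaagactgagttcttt
Psmb8: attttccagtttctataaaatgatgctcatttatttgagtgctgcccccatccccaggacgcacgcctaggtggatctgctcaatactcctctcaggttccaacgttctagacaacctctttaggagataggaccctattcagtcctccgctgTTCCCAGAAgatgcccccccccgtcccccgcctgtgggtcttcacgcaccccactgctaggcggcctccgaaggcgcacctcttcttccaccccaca
Psmb10: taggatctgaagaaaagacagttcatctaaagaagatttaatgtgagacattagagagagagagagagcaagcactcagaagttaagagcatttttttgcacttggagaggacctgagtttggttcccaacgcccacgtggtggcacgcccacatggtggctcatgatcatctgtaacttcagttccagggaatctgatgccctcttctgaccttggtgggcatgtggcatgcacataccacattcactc
In Psmd9 the capitals are GAAAAAGAAA, 159 bases before the start, and TGACCCCGC, 31 bases before it. In Psmd4 they are TTTCCATTTC, the reverse-strand form of the interferon-stimulated core, 80 bases before the start. In Psmb8 they are TTCCCAGAA, 97 bases before the start. The Psmb10 window held no match to these motifs.

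Across the family, 37 of the 44 genes had 41 such windows in the RefSeq table. The antioxidant core was found in 4 of these 41 windows, or 9.76%, in Psmb6, Psmc6, Psmd9 and Psmd12, against 10.2% of all 32851 windows. The interferon-stimulated core was in 2 windows (4.88%, all windows 2.98%), those of Psmd4 and Psmd9. The interferon-gamma site was in 1 window (2.44%, all windows 7.02%), that of Psmb8. The CCAAT box, a general promoter element, was in 15 windows (36.6%, all windows 33.8%). A match is a string of letters in this window and not a shown binding site, and genes without one may carry the element elsewhere.

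Among the assembly chaperones of the 19S base, Psmd9 fell at 24 h. Psmd9 holds a pair of ATPases together while the base is built. Its values at 24 h ran from 5.38 over a median of 5.70 to 5.83 in sham and from 4.90 over 5.13 to 5.36 in MCAO. The groups did not overlap: every MCAO array was below every sham array. The change was -0.54 (SE 0.08, limma adjusted p = 0.000112), or 1.45-fold lower. At 72 h the values ran from 5.42 over 5.58 to 5.80 in sham and from 5.40 over 5.54 to 5.66 in MCAO. These groups overlapped almost entirely, with a change of -0.06 (SE 0.08, limma adjusted p = 0.993, 95% interval -0.23 to 0.11).

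The change of Psmd9 at 72 h minus that at 24 h was 0.48 (SE 0.12, limma adjusted p = 0.0382). It was the 1 proteasome gene of 44 called for this difference between the times, for which 1.79% of all genes were called (0.991% higher and 0.8% lower). The call is near its threshold. It was lost, at adjusted p-values up to 0.0693, on leaving out any one of MCAO 72 h replicates 1, 3, 4 and 5, sham 24 h replicates 1, 3, 4 and 5, and sham 72 h replicates 1, 2, 4 and 5. The fall of Psmd9 at 24 h was called on leaving out any single array, at adjusted p-values of 0.000445 or less. Of the other chaperones, Psmd5, which binds the ATPase Psmc2, had log2 changes of 0.08 at 24 h and 0.17 at 72 h (limma adjusted p = 0.616 and 0.677). Psmd10, known as gankyrin, had log2 changes of 0.14 and 0.05 (limma adjusted p = 0.529 and 1).

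Among the 6 ATPases of the base, which form the ring that unfolds substrates, Psmc1 rose at 24 h. Its sham 24 h values ran from 7.56 over 7.93 to 8.16 and its MCAO 24 h values from 8.05 over 8.45 to 8.87. Of the MCAO arrays, 5 of 6 were above every sham array, and replicate 2, at 8.05, was within the sham range. The change was 0.55 (SE 0.13, limma adjusted p = 0.00362), or 1.46-fold, and it was called on leaving out any single array. At 72 h sham ran from 7.87 over 8.08 to 8.69 and MCAO from 8.10 over 8.20 to 8.33. All MCAO arrays lay within the sham range, and the change was 0.08 (SE 0.13, limma adjusted p = 1, 95% interval -0.18 to 0.34).

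The other 5 ATPases were not called at either time. Psmc5 had the next largest change at 24 h, 0.31 (SE 0.12, limma adjusted p = 0.073), with 6 of 6 MCAO arrays above the sham mean. The 24 h values of Psmc2, Psmc3, Psmc4 and Psmc6 lay between -0.11 and 0.12. At 72 h the ATPase with the smallest p was Psmc3, at 0.13 (SE 0.08, limma adjusted p = 0.706). Within the ring, Psmc1 at 0.55 stood beside its partner Psmc2 at 0.12 (SE 0.10). The difference between these genes was not tested.

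The non-ATPase subunits of the base are the scaffold proteins Psmd1 and Psmd2 and the ubiquitin receptor Psmd4. Psmd1 had a mean of 9.13 (SD 0.19, n = 6) in sham 24 h and 9.38 (SD 0.15, n = 6) in MCAO 24 h, with all 6 MCAO arrays above the sham mean. Its change was 0.25 (SE 0.08, limma adjusted p = 0.0299) at 24 h. At 72 h the means were 9.01 (SD 0.08) and 9.28 (SD 0.13), a change of 0.27 (SE 0.08, limma adjusted p = 0.081), again with 6 of 6 arrays above. Fitted on the 72 h arrays alone, this change had a limma adjusted p of 0.0172. The 72 h change minus the 24 h change of Psmd1 was 0.02 (SE 0.11, limma adjusted p = 0.942). Its 24 h call was lost without MCAO 24 h replicate 3 or 4 or sham 24 h replicate 2, 4 or 5, at adjusted p-values of 0.0677 to 0.071. That call was also lost with the 24 h arrays fitted alone (limma adjusted p = 0.124).

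Psmd4, which captures ubiquitin chains at the cap, was singled out after its values were seen. At 72 h sham ran from 7.64 over 7.78 to 7.98 and MCAO from 8.13 over 8.29 to 8.46, so every MCAO array was above every sham array. The change was 0.50 (SE 0.22), yet it was not called (limma adjusted p = 0.374). The SE is shared by all 4 groups, and Psmd4 varied widely at 24 h, with an SD of 0.76 in MCAO against 0.12 to 0.23 in the other groups. Fitted on the 72 h arrays alone, the same change had a limma adjusted p of 0.00225. In MCAO 24 h, replicates 5 and 6 held 6.52 and 7.23, below every sham 24 h array, while the other 4 ran from 7.98 to 8.48.

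Replicates 5 and 6 of MCAO 24 h set the direction of Psmd4 and of Psmd2 at that time. With all arrays, the log2 change was -0.02 for Psmd4 and -0.06 for Psmd2 (limma adjusted p = 0.968 and 0.842). Without these 2 arrays, Psmd4 rose by 0.44 (limma adjusted p = 0.00645) and Psmd2 by 0.30 (limma adjusted p = 0.0219). The lid subunits Psmd11, Psmd6 and Psmd13 and the chaperone Psmd10 were also called higher without them, at 0.58, 0.39, 0.30 and 0.32. Psmc3ip, which encodes no subunit, was newly called lower, at -0.22 (limma adjusted p = 0.0156). Psma4, Psma6, Psmd3 and Psmd8 were no longer called in that fit. The count without these arrays was 13 of 44, with 10 higher and 3 lower, where 24.4% of all genes were called. These 2 arrays stood apart over all genes as well, with correlations to the rest of their group of 0.976 and 0.971, against 0.989 to 0.991 for the other 4. Their cardiomyocyte marker means were 12.65 and 12.50, against 12.78 to 12.80 in the other 4, and the part of this in the proteasome values was not tested.

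The lid removes ubiquitin chains before the substrate enters the core. At 24 h, 3 of its 8 subunits rose and none fell, or 37.5% called, where 21.8% of all genes were called and 11.1% rose. The median log2 change was 0.22, against 0.01 over all genes. With only 8 genes, the difference between these shares was not tested. None of these 3 calls held with array weights or with the 24 h arrays fitted alone. Psmd7, the partner of the deubiquitinase Psmd14, was the only proteasome gene called at both times. At 24 h its values ran from 9.53 over 9.78 to 10.22 in sham and from 9.95 over 10.15 to 10.35 in MCAO. All 6 MCAO arrays were above the sham mean, but the ranges overlapped because 1 sham array reached 10.22. The change was 0.34 (SE 0.10, limma adjusted p = 0.0153), or 1.27-fold. At 72 h the values ran from 9.49 over 9.74 to 9.89 in sham and from 9.90 over 10.04 to 10.30 in MCAO. Here the groups did not overlap, and the change was 0.39 (SE 0.10, limma adjusted p = 0.0302), or 1.31-fold. The 72 h call was lost without MCAO 72 h replicate 2, 5 or 6 or sham 72 h replicate 2, 3 or 6, at adjusted p-values of 0.055 to 0.0959. Without sham 72 h replicates 2 and 3 together, the Psmd7 change at 72 h was 0.30 (limma adjusted p = 0.277). Its 72 h call was kept with array weights and with the 72 h arrays fitted alone.

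Psmd3, a structural subunit of the lid, had 24 h values from 6.91 over 7.23 to 7.41 in sham and from 7.18 over 7.59 to 7.85 in MCAO. The ranges overlapped, and the change was 0.35 (SE 0.11, limma adjusted p = 0.0227). Its call was lost without MCAO 24 h replicate 3 or 5 or sham 24 h replicate 3, at adjusted p-values of 0.0501 to 0.0598. Fitting the 24 h arrays alone also ended the call (limma adjusted p = 0.0779). At 72 h Psmd3 ran from 7.13 over 7.17 to 7.62 in sham and from 7.19 over 7.31 to 7.54 in MCAO, a change of 0.06 (SE 0.11, limma adjusted p = 1). The lid subunit Psmd8 had means of 8.44 (SD 0.19, n = 6) and 8.79 (SD 0.26, n = 6) at 24 h, a change of 0.35 (SE 0.11, limma adjusted p = 0.025). At 72 h its change was -0.16 (SE 0.11, limma adjusted p = 0.746), with no MCAO array above the sham mean. The Psmd8 call at 24 h was lost without the same 3 arrays as for Psmd3, at adjusted p-values of 0.0508 to 0.063. With the 24 h arrays fitted alone, the limma adjusted p of Psmd8 was 0.0955. Psmd14, the deubiquitinase itself, had values of -0.04 at 24 h and -0.16 at 72 h and was not called.

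**Figure D2:**
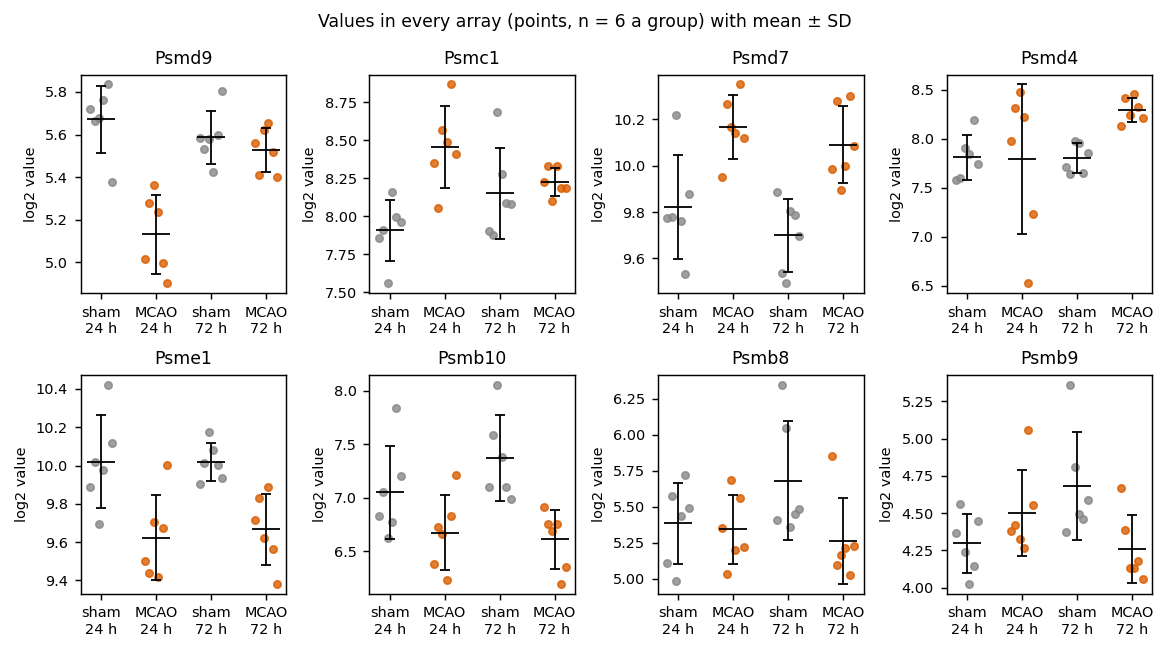
Log2 value of 8 proteasome genes in every array (points) with the mean and SD of each group of 6, sham in grey and MCAO in orange. Psmd9 is lower in all MCAO arrays at 24 h and not at 72 h, Psmd7 is higher at both times, and 2 MCAO 24 h arrays of Psmd4 lie far below the rest. Psmb8, Psmb9 and Psmb10 reach their highest values in sham 72 h.

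In the core, 2 of the 8 alpha subunits, which form the outer rings and the gate, rose at 24 h. That is 25% called, near the 21.8% of all genes. Psma6 ran from 8.04 over 8.15 to 8.22 in sham and from 8.23 over 8.40 to 8.69 in MCAO. Every MCAO array was above every sham array, though the closest pair differed by little, and the change was 0.27 (SE 0.09, limma adjusted p = 0.0398). The call was lost without MCAO 24 h replicate 3, 4 or 5 or sham 24 h replicate 1, 3, 5 or 6, at adjusted p-values of 0.0564 to 0.0962. Fitted on the 24 h arrays alone, the Psma6 change had a limma adjusted p of 0.057. Psma4 had means of 8.04 (SD 0.42, n = 6) and 8.50 (SD 0.31, n = 6), a change of 0.46 (SE 0.15, limma adjusted p = 0.0272). That call was lost without MCAO 24 h replicate 5 or 6 or sham 24 h replicate 1 or 5, at adjusted p-values of 0.0501 to 0.0677. In the fit of the 24 h arrays alone, the limma adjusted p of Psma4 was 0.146. At 72 h the log2 change was 0.20 (SE 0.09) for Psma6 and -0.04 (SE 0.15) for Psma4, and neither was called.

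The alpha subunit with the smallest p at 72 h was Psma2, whose change of -0.28 (SE 0.09) was not called (limma adjusted p = 0.116), with no MCAO array above the sham mean. Psma3 and Psma7 were singled out after their values were seen, for arrays far below the rest of MCAO 24 h. In MCAO 24 h, replicates 5 and 6 held 4.54 and 5.19 of Psma3, below every sham array. Without both, the log2 change of Psma3 at 24 h was 0.02 (limma adjusted p = 0.932). Replicate 6 held 6.39 of Psma7, where the highest array of the group reached 8.76, and without it the log2 change of Psma7 was -0.01 (limma adjusted p = 0.949). Neither gene was called with all arrays. The log2 change of Psma3 was -0.47 at 24 h and 0.49 at 72 h (limma adjusted p = 0.172 and 0.483), and that of Psma7 -0.34 and -0.04 (limma adjusted p = 0.324 and 1). Fitted on the 72 h arrays alone, the 72 h change of Psma3 had a limma adjusted p of 0.0392.

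None of the 5 constitutive beta subunits (Psmb1, Psmb2, Psmb4, Psmb6, Psmb7) was called at either time, where 21.8% and 2.35% of all genes were. An unadjusted limma p under 0.05 was found for 1 of 5 at 24 h (all genes 34.7%) and 0 of 5 at 72 h (all genes 10.9%). With 5 genes, these counts do not set the beta subunits apart from all genes. Psmb6 and Psmb7 carry catalytic sites that the immunoproteasome subunits Psmb9 and Psmb10 replace. At 24 h the smallest p was that of Psmb7, with a log2 change of 0.21 (SE 0.09, limma adjusted p = 0.113), with 6 of 6 MCAO arrays above the sham mean. At 72 h all 5 changes were below 0 and small, from -0.13 to -0.06, and the smallest p was that of Psmb4 (change -0.13, SE 0.13, limma adjusted p = 0.942).

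All 3 immunoproteasome subunits had lower means in MCAO than in sham at 72 h (median log2 change -0.42), and 1 of the 3 passed the test. Psmb10, the trypsin-like site of the immunoproteasome, ran from 6.99 over 7.24 to 8.06 in sham 72 h and from 6.20 over 6.72 to 6.91 in MCAO 72 h. Every MCAO array was below every sham array. The change was -0.76 (SE 0.20, limma adjusted p = 0.042), or 1.69-fold lower, the largest of any proteasome gene at either time. At 24 h Psmb10 ran from 6.63 over 6.94 to 7.84 in sham and from 6.23 over 6.69 to 7.22 in MCAO. These groups overlapped, and the change was -0.38 (SE 0.20, limma adjusted p = 0.184).

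Psmb8, the chymotrypsin-like site, ran from 5.36 over 5.47 to 6.35 in sham 72 h and from 5.03 over 5.19 to 5.85 in MCAO 72 h. Its change was -0.42 (SE 0.17, limma adjusted p = 0.295, 95% interval -0.77 to -0.06), with 1 MCAO array above the sham mean. Psmb9 ran from 4.38 over 4.54 to 5.36 in sham 72 h and from 4.05 over 4.16 to 4.67 in MCAO 72 h. Its change was -0.42 (SE 0.15, limma adjusted p = 0.185), with no MCAO array above the sham mean. The groups overlapped for both genes, and neither was called. At 24 h Psmb8 ran from 4.98 over 5.46 to 5.72 in sham and from 5.04 over 5.29 to 5.69 in MCAO, a change of -0.04 (limma adjusted p = 0.886). Psmb9 ran from 4.03 over 4.30 to 4.56 in sham and from 4.27 over 4.40 to 5.06 in MCAO, a change of 0.20 (limma adjusted p = 0.356). The difference of the change between the times passed the test for none of the 3 (smallest limma adjusted p = 0.124).

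Sham 72 h replicates 2 and 3 held the 2 highest values of that group for each of the 3 genes: 6.35 and 6.05 for Psmb8, 5.36 and 4.81 for Psmb9, and 7.58 and 8.06 for Psmb10. Without both, a fit chosen after these values were seen, the log2 change was -0.53 for Psmb10 (limma adjusted p = 0.338), -0.16 for Psmb8 and -0.22 for Psmb9. Dropping the 2 highest sham arrays could not make the groups of Psmb10 overlap, since all MCAO arrays already lay below all sham arrays. No sham 72 h array was below 6.99 and no MCAO 72 h array above 6.91. The Psmb10 call was also lost without any one of 12 single arrays, at adjusted p-values of 0.0502 to 0.127. These were MCAO 72 h replicates 2 to 6, sham 72 h replicates 2, 3 and 4, MCAO 24 h replicates 2 and 3, and sham 24 h replicates 2 and 6. The Psmb10 call was kept with array weights and with the 72 h arrays fitted alone.

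The 7 pan-leukocyte markers (Ptprc, Coro1a, Laptm5, Cd52, Cd53, Lcp1, Arhgdib) were all above the receptor level. Their array means at 72 h were 5.79 to 6.78 in sham, with 6.78 in replicate 2 and 6.07 in replicate 3, and 5.59 to 5.85 in MCAO. None of the 7 was called at 72 h, at a median change of -0.34. At 24 h the array means were 5.94 to 6.35 in sham and 5.31 to 5.65 in MCAO, and 5 of the 7 fell, at a median change of -0.67, while no immunoproteasome subunit was called. Of 5 macrophage markers none was called at either time, with array means of 6.21 to 7.39 in sham 72 h and 6.13 to 6.62 in MCAO 72 h. The 4 lymphocyte and 4 neutrophil markers measured had means over all arrays at or under the receptor level. At 24 h, 1 lymphocyte marker was called lower and 1 neutrophil marker higher. Sham 72 h replicate 2 also had the highest fibroblast marker mean, 9.20, where the other sham 72 h arrays ran from 8.07 to 8.44 and the MCAO 72 h arrays from 7.80 to 8.32. The part of leukocyte or fibroblast content in the immunoproteasome values was not tested.

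Set against the constitutive subunit it replaces, Psmb10 minus Psmb7 within each array, a pair looked at after the values were seen, averaged -2.09 (SD 0.36, n = 6) in sham 72 h and -2.78 (SD 0.17, n = 6) in MCAO 72 h. At 24 h the averages were -2.36 (SD 0.57) in sham and -2.94 (SD 0.30) in MCAO. Psmb9 minus Psmb6 averaged -4.98 (SD 0.37) in sham 72 h and -5.33 (SD 0.24) in MCAO 72 h, and -5.49 (SD 0.43) and -5.36 (SD 0.19) at 24 h. Only the differences between groups can be read here, since the probes of the genes in a pair need not respond alike. The mean of the Psmb10 pair was lower in MCAO at both times and that of the Psmb9 pair at 72 h, but the ranges overlapped. The Psmb10 pair ran from -2.93 to -1.33 in sham 24 h and from -3.39 to -2.58 in MCAO 24 h. At 72 h it ran from -2.47 to -1.54 in sham and from -2.90 to -2.44 in MCAO. The Psmb9 pair ran from -5.27 to -4.29 in sham 72 h and from -5.64 to -4.93 in MCAO 72 h. These differences between groups were not tested.

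Among the activators, Psme1 fell at 24 h and Psme4 rose. Psme1 and Psme2 encode the alpha and beta chains of the interferon-inducible ring PA28, which caps the core. Psme1 ran from 9.69 over 9.998 to 10.42 in sham 24 h and from 9.42 over 9.59 to 10.002 in MCAO 24 h. The ranges overlapped, but no MCAO array was above the sham mean, and the change was -0.40 (SE 0.11, limma adjusted p = 0.012), or 1.32-fold lower. At 72 h it ran from 9.90 over 10.01 to 10.18 in sham and from 9.38 over 9.67 to 9.89 in MCAO. The 72 h groups did not overlap, and the change of -0.35 (SE 0.11, 95% interval -0.58 to -0.13) was not called (limma adjusted p = 0.101). Fitted on the 72 h arrays alone it had a limma adjusted p of 0.0209.

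Psme2, the other chain of the same ring, was not called. It ran from 5.41 over 5.65 to 5.79 in sham 24 h and from 5.45 over 5.92 to 6.40 in MCAO 24 h, a change of 0.32 (SE 0.15, limma adjusted p = 0.134). At 72 h it ran from 5.35 over 5.76 to 6.19 in sham and from 5.49 over 5.83 to 6.11 in MCAO, a change of 0.04 (SE 0.15, limma adjusted p = 1). The groups overlapped at both times, and the difference between the 2 chains was not tested.

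Psme4 encodes PA200, a large single-chain activator found mainly in the nucleus. It ran from 10.22 over 10.29 to 10.47 in sham 24 h and from 10.21 over 10.62 to 10.79 in MCAO 24 h. Of the MCAO arrays, 5 of 6 were above every sham array, and replicate 6 was below every sham array. The change was 0.26 (SE 0.07, limma adjusted p = 0.0154), and leaving out any single array kept the call. At 72 h it ran from 10.06 over 10.22 to 10.34 in sham and from 10.10 over 10.27 to 10.36 in MCAO, a change of 0.05 (SE 0.07, limma adjusted p = 0.998). Psme3, which forms the nuclear ring PA28 gamma, had log2 changes of -0.01 at 24 h and 0.09 at 72 h, and the inhibitor Psmf1 of 0.29 and -0.01. Neither was called (limma adjusted p of Psmf1 at 24 h = 0.0656).

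Looking across the times, 8 of the 10 genes called at 24 h had a change of the same sign at 72 h, and Psma4 and Psmd8 had the opposite sign. Groups did not overlap for 2 of 44 genes at 24 h (Psma6 and Psmd9), or 4.55%, against 5.53% of all genes. At 72 h they did not overlap for 4 of 44 (Psmd4 and Psmd7 above, Psmb10 and Psme1 below), or 9.09%, against 3.54% of all genes. An unadjusted limma p under 0.05 was found for 16 of 44 genes at 24 h (36.4%, all genes 34.7%) and 9 of 44 at 72 h (20.5%, all genes 10.9%). These shares over all genes include dim genes, while 41 of the 44 lay above the receptor level. Neither comparison was made among brighter genes alone. No proteasome gene had a change of 2-fold or more at either time. Between the sham groups, 72 h against 24 h, none of the 44 was called by limma, 2 had an unadjusted p under 0.05, and 0.0208% of all genes were called (0.00833% higher and 0.0125% lower).

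**Figure D3:**
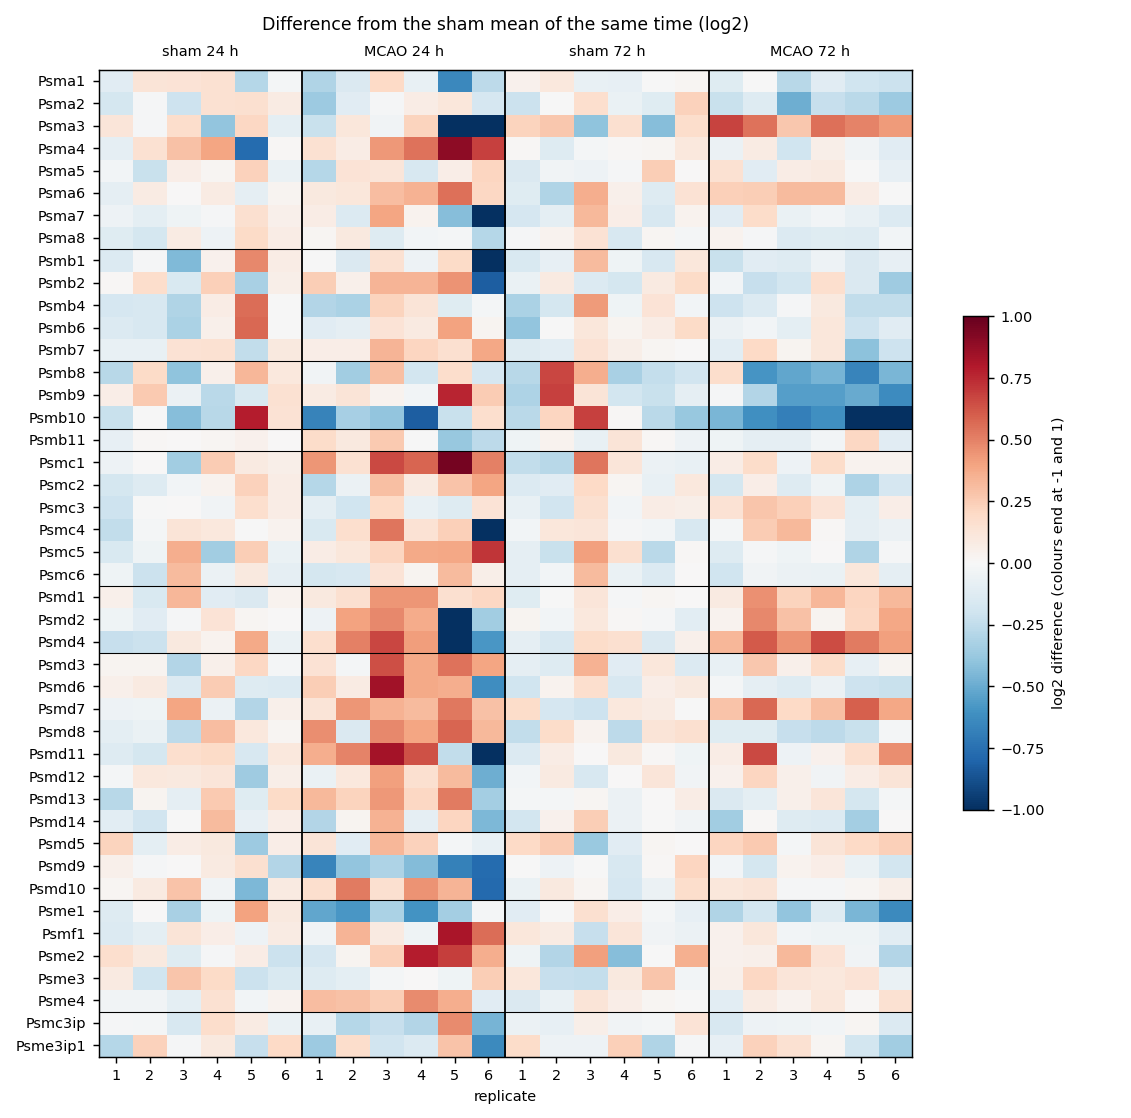
Log2 value of each of the 44 proteasome genes in each of the 24 arrays minus the sham mean of the same time, with rows in order of role and columns as replicates 1 to 6 of each group. Red is higher, blue lower, and colours end at -1 and 1. MCAO 24 h replicate 3 is red in most rows, replicate 6 holds many blue cells, and Psmb8, Psmb9 and Psmb10 are red in sham 72 h replicates 2 and 3.

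Single arrays of MCAO 24 h differed from each other over the whole family. Replicate 3 had 24 of 44 genes above every sham 24 h array and 2 below. Replicate 5 had 21 above and 9 below. Replicate 6 had 10 above and 19 below. The median difference of the 44 genes from the sham mean ran from -0.09 to 0.25 over the 6 arrays, so the arrays of this group did not share one shift of the whole family.

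Genes that work with the proteasome were followed in 3 lists. Of 20 measured assembly and shuttle factors, 4 rose and 2 fell at 24 h, where 11.1% of all genes rose and 10.8% fell. Both deubiquitinases that trim chains at the cap rose, Uchl5 by 0.64 (limma adjusted p = 0.00205) and Usp14 by 0.30 (limma adjusted p = 0.0296). Txnl1, a thioredoxin of the cap, rose by 0.36 (limma adjusted p = 0.0075) and Nploc4, a cofactor of the unfoldase Vcp, by 0.33 (limma adjusted p = 0.00897). The core assembly chaperone Psmg3 fell by 0.30 and the stress-induced shuttle Zfand2a fell by 0.28 (limma adjusted p = 0.015 and 0.0409). At 72 h Nploc4 alone was called, at 0.32 (limma adjusted p = 0.0471).

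Of 13 measured regulators of proteasome genes, 2 rose at 24 h, where 11.1% of all genes did, and none was called at 72 h. They were Nfe2l2, which encodes NRF2, at 0.48 (limma adjusted p = 0.00118), and its small Maf partner Mafk, at 0.63 (limma adjusted p = 0.00521). Of 11 genes of MHC class I presentation, the pathway fed by immunoproteasome peptides, 4 fell at 24 h, where 10.8% of all genes did, and none at 72 h. The trimming peptidase Erap1 fell by 0.33 (limma adjusted p = 0.0453). The chaperones of the endoplasmic reticulum Calr, Canx and Pdia3 fell by 0.47, 0.31 and 0.62 (limma adjusted p = 0.028, 0.00435 and 0.00361). These 3 act in the folding of many proteins besides MHC class I. The class I heavy chains, B2m and the Tap transporters were not among the genes called. The median changes at 24 h were 0.11 for the assembly and shuttle factors, -0.02 for the regulators and -0.31 for class I presentation, against 0.01 over all genes.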

How the data were processed

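Groups were taken from the sample titles and treatment labels. The 72 h samples carry a description that says 24 h; their titles were followed instead. The values are log2 values deposited by the authors, 1 for each of 24973 gene identifiers; their base was inferred from their range (2.78 to 13.5). The authors had quantile-normalized them, as judged from the deposited values: sorted values were identical in 23 columns. HOMER is listed, with no version, in the submitters' processing notes; how probes were summarized, and on which build, is not given in the sources used here. Of the identifiers, 24015 had a symbol in the platform annotation used here, and the brightest was kept where a symbol had several.

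All 24011 genes were fitted with limma 3.58.1 in R 4.3.3 (lmFit and eBayes on 24 arrays and 4 group means, leaving 20 residual degrees of freedom). Adjustment was by Benjamini-Hochberg, at a threshold of 0.05. The contrasts set MCAO against sham at 24 h and at 72 h, the later effect against the earlier, and sham at 72 h against sham at 24 h. Contrasts that share arrays are not independent. The proteasome genes, the gene lists and the settings tried were chosen with earlier results of these data known. Named with values over the arrays were up to 6 called genes with the smallest p in each MCAO contrast, and Psmb8, Psmb9, Psmb10, Psme1 and Psme2; named with changes were the other called genes and the gene with the smallest p of each role. Promoters came from RefSeq's table for GRCm38.p6, whose build need not be that of the arrays. Alternatives were a trended and robust prior, 2 further normalizations, a filter on dim genes, other treatments of identifiers, array weights, a replicate block, a receptor covariate, fits of the compared groups alone, and fits without certain arrays. The number of arrays limits the precision.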

Additional observations from a re-analysis of the deposited data

Results flagged for a closer look

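Values that lie apart from the rest of their group were searched for in 176 groups of 6 arrays (44 genes in 4 groups) with Dixon's criterion, and 16 were found. Chance flags about 1 in 20 such groups, or 8.8 here. MCAO 24 h replicate 6 accounted for 7 of the 16. It was the lowest of its group for Psma7 (log2 value 6.39), Psmb1 (8.07), Psmb2 (7.94), Psmc4 (7.23), Psmd10 (3.99) and Psmd13 (6.98), and the highest for Psme3 (7.62). In the same group, replicate 5 was highest for Psmb9 (5.06) and replicate 2 lowest for Psmd8 (8.30).

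The other 7 values were spread over the remaining groups. In MCAO 72 h these were Psma7 in replicate 2 (8.81, highest), Psmb8 in replicate 1 (5.85, highest) and Psmb11 in replicate 5 (3.88, highest). In sham 72 h they were Psmb6 in replicate 1 (9.26, lowest) and Psmc6 in replicate 3 (9.22, highest). In sham 24 h they were Psmb11 in replicate 1 (3.53, lowest) and Psmd12 in replicate 5 (9.44, lowest). Psmb11 lay at or under the receptor level throughout.

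The effect of MCAO on Psmd9 at 72 h minus that at 24 h, 0.48 on the log2 scale (limma adjusted p = 0.0382), was the only such difference between the times called among the 44 genes.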

How the results depend on the processing

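The numbers of proteasome genes called at 24 h (10), at 72 h (2), for the difference between the times (1) and between the sham groups (0) were recomputed under each setting. At 24 h, 4 were called with array weights, 2 with the compared groups alone and 1 with the receptor covariate, where 13.6%, 9.14% and 1.33% of all genes were. At 72 h, 7 were called with array weights (7.93% of all genes) and 6 with the compared groups alone (5.87%). Without MCAO 24 h replicates 5 and 6, 5 were called (4.59%). The count was 0 with the replicate block (2.16% of all genes) and 0 when sham 72 h replicates 2 and 3 were dropped (1.23%). For the difference, 0 were called with a trended and robust prior, 0 among genes above the median level, 0 with array weights, 0 with the replicate block, 0 without MCAO 24 h replicates 5 and 6, 0 with the receptor covariate and 0 when sham 72 h replicates 2 and 3 were dropped. For the difference, the share of all genes called is given here for the main fit alone, at 1.79%. Leaving out each array gave 7 to 14 at 24 h, 0 to 3 at 72 h, 0 to 2 for the difference and 0 between the sham groups. In these fits the share of all genes called ran from 17.6% to 24.4% at 24 h and from 1.64% to 3.42% at 72 h. The fewest at 24 h came without replicate 5 of either group and the most without MCAO 24 h replicate 6. The cause of these shifts was not tested.

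Directions turned in 4 cases where a call was involved, all at 24 h: Psma4 (0.46) was -0.25 with the receptor covariate, Psmd2 (-0.06) was 0.30 without MCAO 24 h replicates 5 and 6, and Psmd4 (-0.02) was 0.44 without them and 1.20 with the covariate. A further 165 turns of sign were of values called in neither fit. Psmd9 and Psmc1 at 24 h lost their calls with the covariate alone (limma adjusted p = 0.214 and 0.392). Psme1 and Psme4 lost them there (0.332 and 0.236) and with the compared groups alone (0.0657 and 0.0901). Psmd7 at 24 h lost its call in both (0.962 and 0.058) and with array weights (0.0889).

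Same-numbered arrays showed little shared deviation: 1 of 12 correlations of their deviations was above 0.1 (range -0.0695 to 0.141). Low correlations cannot show whether same-numbered samples were handled together, so a pairing by number stays possible. With the replicate block the 24 h count was 10, where 20.6% of all genes were called. In that fit Psmb10 and Psmd7 at 72 h had limma adjusted p-values of 0.0858 and 0.0775.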
